A study of Homo sapiens with 6 samples.

Results

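The genes described here are 9 genes of pericellular proteolysis: the matrix metalloproteinases MMP1, MMP7, MMP9 and MMP14, the tissue inhibitors of metalloproteinases TIMP1, TIMP2 and TIMP3, the urokinase gene PLAU, and the sheddase ADAM17. They were found by the RefSeq accession that the array design gives for each probe. All 9 were present, with 10 probes at 19 spots, among 58201 gene probes at 60901 spots that named 22438 genes. The samples were AGS cells, which derive from a human gastric adenocarcinoma. RNA was taken 48 h after the cells received either si-Control, an siRNA without a target, or si-C1GALT1-3, which is directed against C1GALT1, the enzyme that adds galactose to form the core 1 structure of mucin-type O-glycans. Each group had 3 samples and each sample its own one-colour Agilent array. The array experiment used 1 cell line and 1 siRNA sequence against C1GALT1, with no other treatment named, and the labels do not say whether the 3 samples came from separate cultures, so that p-values measure the spread between these samples, which may be technical.

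Matrix metalloproteinases are zinc-dependent enzymes, made as inactive precursors, that cut collagens, laminins and other proteins of the extracellular matrix and of the cell surface. TIMPs bind the active site of these enzymes and block it, whereas urokinase turns plasminogen into plasmin at the cell surface, and plasmin degrades matrix and activates some metalloproteinase precursors. ADAM17 releases the outer part of membrane proteins such as the precursor of TNF and ligands of the EGF receptor. Carcinoma cells use such enzymes to pass through basement membrane, and several of the genes are known targets of the AP-1 and ETS transcription factors.

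RefSeq promoter sequence was at hand for 6 of the 9 genes, MMP7, MMP14, TIMP1, TIMP3, PLAU and ADAM17, with 7 start sites. The 250 bases before the start of MMP7 and of MMP14 are shown because the first holds letters of both factor families and the second holds neither. MMP14 is a metalloproteinase whose groups did not overlap, as is MMP1, for which no promoter sequence was at hand. The downstream start of PLAU is shown for its single ETS match. The windows shown lie at chr11:102530748-102530997 on the minus strand, chr14:22836335-22836584 on the plus strand and chr10:73910882-73911131 on the plus strand of GRCh38.p14, and are written 5′ to 3′. Capitals mark matches to the AP-1 letters TGANTCA or to the ETS (PEA3) letters AGGAAG on either strand.
MMP7 promoter: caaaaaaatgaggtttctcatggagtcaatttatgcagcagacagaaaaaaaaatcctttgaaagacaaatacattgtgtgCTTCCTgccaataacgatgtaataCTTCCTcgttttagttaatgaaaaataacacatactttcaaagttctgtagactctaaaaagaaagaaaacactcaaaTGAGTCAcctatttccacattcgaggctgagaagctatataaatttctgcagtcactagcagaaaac
MMP14 promoter: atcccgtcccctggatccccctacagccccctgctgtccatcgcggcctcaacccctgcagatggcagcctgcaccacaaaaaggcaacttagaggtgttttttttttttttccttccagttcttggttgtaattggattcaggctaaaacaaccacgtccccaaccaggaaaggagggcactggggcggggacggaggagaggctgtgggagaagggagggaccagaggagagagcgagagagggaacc
PLAU downstream promoter: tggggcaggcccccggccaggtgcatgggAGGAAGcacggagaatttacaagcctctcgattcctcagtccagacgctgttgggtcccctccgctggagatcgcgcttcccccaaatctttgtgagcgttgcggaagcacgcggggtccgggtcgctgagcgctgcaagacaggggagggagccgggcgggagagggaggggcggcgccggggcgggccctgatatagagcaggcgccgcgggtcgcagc
MMP7 had 1 AP-1 match, at position -67 from the start, and 2 ETS matches. The AP-1 letters occurred in 6.57% of 35116 RefSeq promoters of this length, the ETS letters in 28.7%, and the Sp1 letters GGGCGG, searched on both strands, in 42.6%. Of the 7 start sites, that of MMP7 alone had an AP-1 match, and single ETS matches stood at -157 in ADAM17, at -87 in TIMP1 and at -221 in the downstream PLAU start. The MMP14 window had 1 Sp1 match, that of MMP7 had 0 and that of TIMP3 had 5. A match of letters is a description of the sequence only.

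The values below are log2 of the deposited processed intensity after quantile normalization over the 6 arrays, and a difference is si-C1GALT1-3 minus si-Control on that scale. Values were compared between groups for the same probe and not between probes. A gene was called when p was under 0.01 and the change at least 2-fold, the threshold that the study applied to its arrays. The targeted gene, C1GALT1, read 12.22, 13.03 and 12.62 in si-Control replicates 1 to 3 and 11.76, 11.98 and 11.13 in si-C1GALT1-3 replicates 1 to 3. Values are given in this order throughout. Every si-C1GALT1-3 value lay below every si-Control value, and the difference was -1.0 (SE 0.31, adjusted p = 0.265), which did not pass the rule. It passed in 1 of 17 alternative settings, that with dim probes left out. Between 66.2% and 72.7% of gene spots were well above background on each array and 0 were saturated. Precision is limited by having 3 arrays a group. The array of si-Control replicate 2 had a central region of low signal with 15.9% of its gene spots, where the median signal was 15.3 against 148 to 287 on the other arrays. Spots in that region were left out on that array. Each slide carried 1 array of each group, with the replicate number marking the slide, and the treated array always in the same slide column, so that slide position and treatment cannot be told apart. The 8 epithelial markers were well above background on all arrays that measured them, and so were 3 of 6 fibroblast markers (COL1A1, COL3A1 and PDGFRB), 3 of 5 leukocyte markers (CD14, CD3E and PTPRC) and 2 of 3 endothelial markers (CDH5 and VWF). The PTPRC probe averaged 13.97 in si-Control and 13.64 in si-C1GALT1-3, and the PDGFRB probe 13.32 and 12.52. The fibroblast genes COL1A2 and LUM were well above background on no array. None of the 22 markers was called, and the part of such signals in the results was not tested.

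None of the 9 genes passed the call rule, and 2 of 9, MMP1 and MMP14, had groups that did not overlap. Over all named genes 3.41% were called, 765 of 22438, and 2.64% of all probes. Groups did not overlap for 25.3% of named genes, 14% being higher and 11.2% lower in si-C1GALT1-3. Limma gave an unadjusted p under 0.05 for the same 2 of 9 genes, against 16.6% of all named genes, and 0 of the 9 had an adjusted p under 0.05. Of the 9 genes 0 were called with the methods' t-test, named there for group comparisons in general and not for the arrays. The median difference of the 9 genes was -0.08, against 0.02 over all named genes. With 3 arrays against 3, the smallest p that an exact permutation test can give for a single gene is 0.1.

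**Figure D1:**
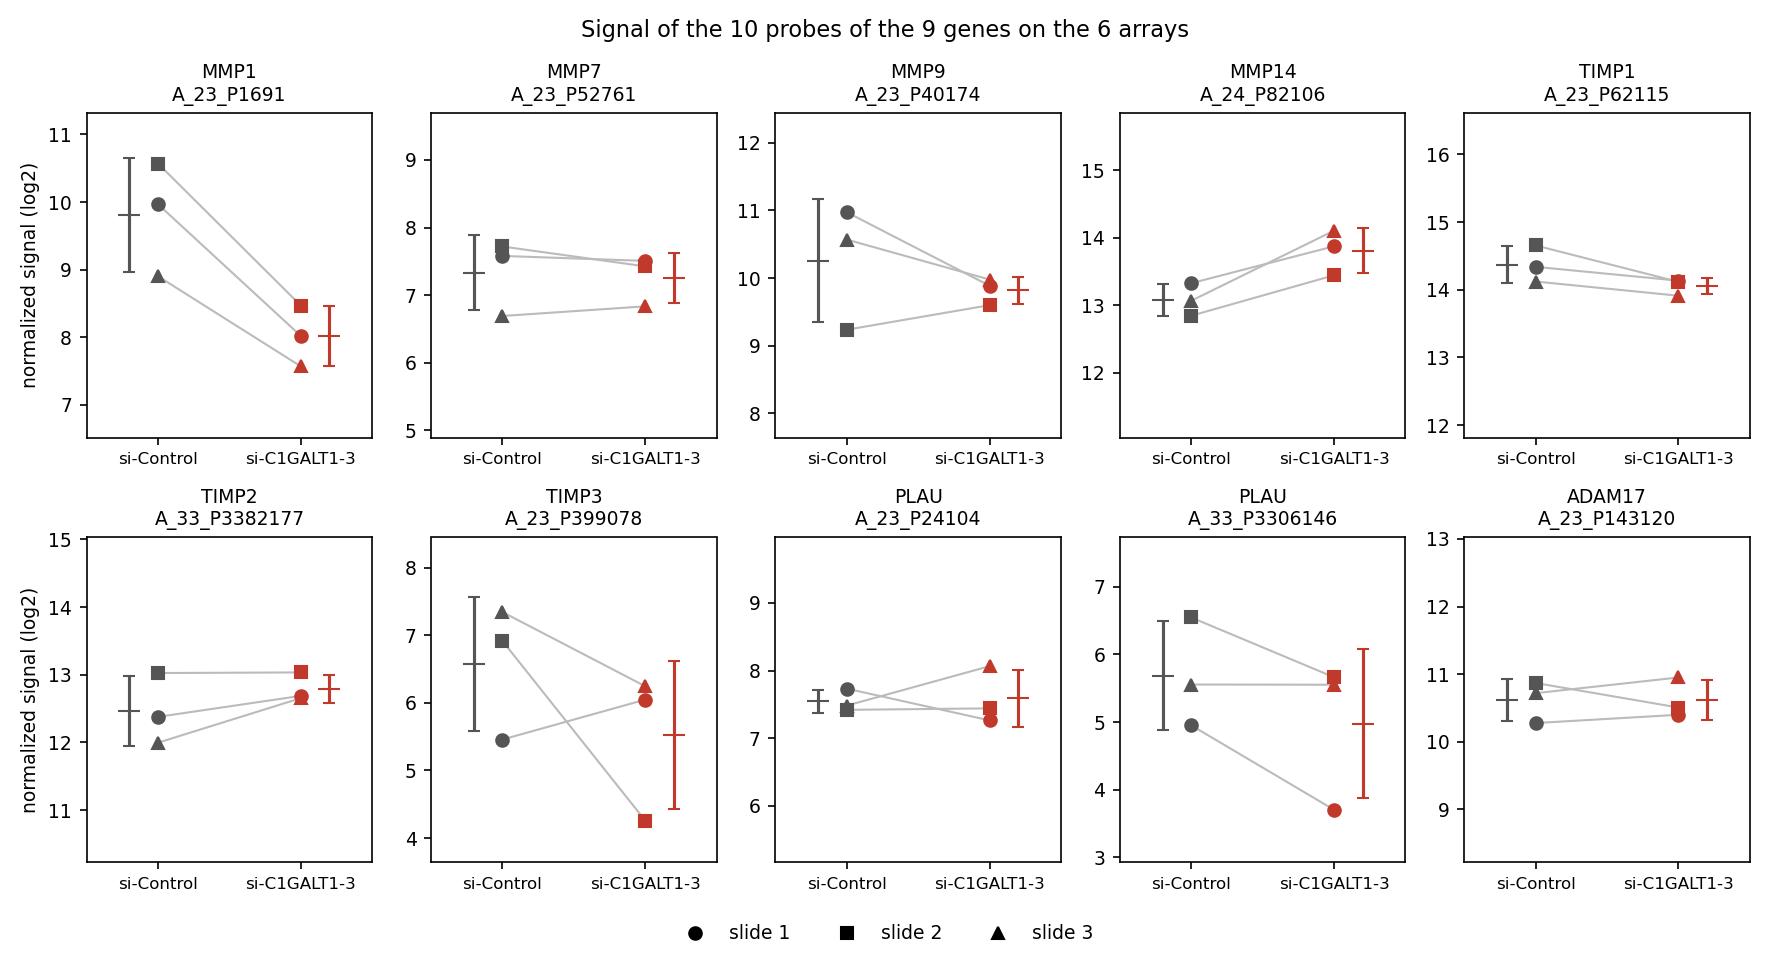
Normalized log2 intensity (vertical axis) of each of the 10 probes on the 6 arrays, with 1 panel per probe. Symbols mark the slide, lines join the 2 arrays of a slide, and bars give the mean and SD of a group (n = 3). MMP1 lay between 8.90 and 10.57 in si-Control and between 7.57 and 8.47 in si-C1GALT1-3, and MMP14 between 12.85 and 13.33 against 13.44 to 14.10.

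MMP1, interstitial collagenase, which cleaves fibrillar collagen, had the largest difference of the 9 genes. Its probe read 9.97, 10.57 and 8.90 in si-Control and 8.02, 8.47 and 7.57 in si-C1GALT1-3. All treated values lay below all control values, and both arrays of slide 3 were the lowest of their group. The means were 9.81 ± 0.84 and 8.02 ± 0.45 (SD, n = 3 each), a difference of -1.79 (SE 0.48, 95% confidence interval -2.97 to -0.62), or 3.46-fold lower. The unadjusted p of limma lay just above 0.01, so that the gene was not called, and the adjusted p was 0.214. It was called in 7 of 17 alternative settings. Fewer cells with the transcript and less transcript per cell cannot be told apart in bulk RNA.

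Set against the other array of its own slide, MMP1 was lower on slides 1, 2 and 3 by differences of -1.95, -2.10 and -1.33. With the replicate as a block, which compares arrays within slides, the difference of -1.79 had an SE of 0.21 and an interval of -2.39 to -1.19. In that fit MMP1 passed the call rule, as did 3.41% of named genes in either direction and 1.25% in the lower direction, and its adjusted p was 0.180. Leaving out si-Control replicate 3 gave -2.23 and a call, whereas leaving out si-Control replicate 2 gave -1.43 without one. Without both arrays of slide 3, chosen after seeing the data, the difference was -1.99 and the gene was called.

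The MMP1 probe was printed at 10 spots, which allows the reading within an array to be checked. The median processed signal over the spots that were used was 1223, 1455 and 345 for si-Control and 293, 416 and 156 for si-C1GALT1-3, before normalization between arrays. On si-Control replicate 1, 2 spots marked as outliers were left out and 8 were used. The SD between spots of 1 array was between 0.087 and 0.174 on the log2 scale, smaller than the difference between the groups. The spots of 1 array are no replicates of the treatment. One spot of si-Control replicate 2, inside the low-signal region, read 31.0 against 1227 to 1546 at the 9 spots that were used there, and it was left out.

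**Figure D2:**
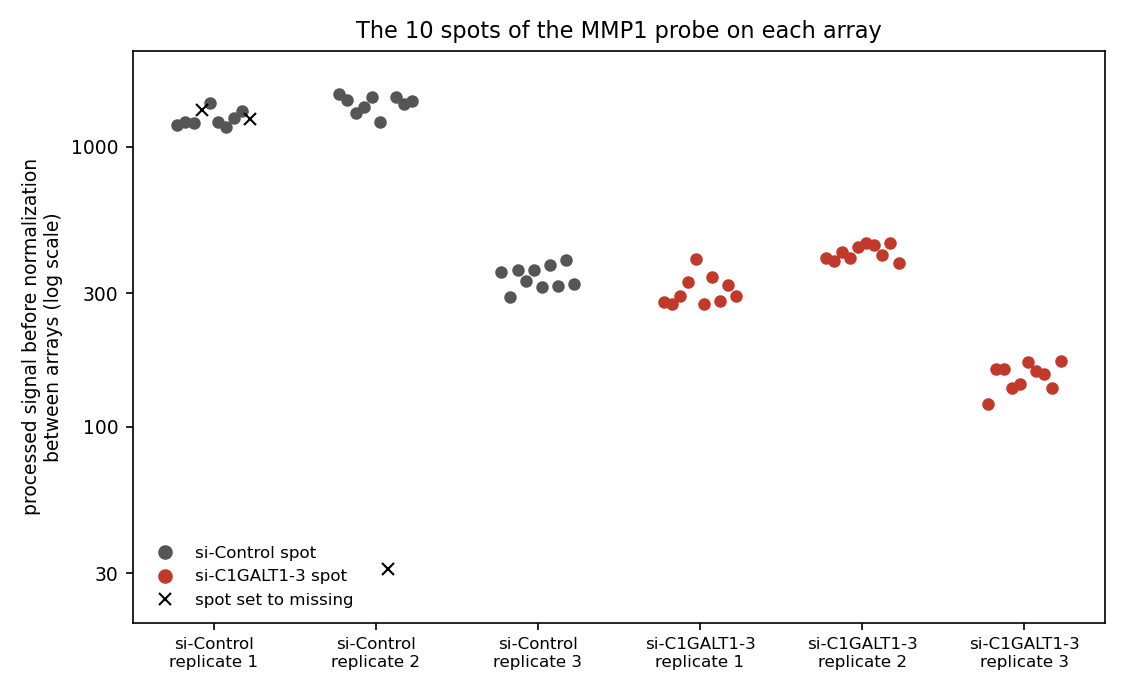
Processed signal of each MMP1 spot (vertical axis, intensity on a log scale) on the 6 arrays, before normalization. Points are spots, crosses are spots set to missing, and the cross of si-Control replicate 2 at 31.0 is the one in the low-signal region. The medians were 345 to 1455 in si-Control and 156 to 416 in si-C1GALT1-3.

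MMP14, a membrane-anchored metalloproteinase that cuts collagen at the cell surface and activates the precursor of MMP2, differed in the other direction. Its probe read 13.33, 12.85 and 13.07 in si-Control and 13.87, 13.44 and 14.10 in si-C1GALT1-3. All treated values were above all control values, by 0.55, 0.60 and 1.04 within slides 1, 2 and 3. The difference was 0.73 (SE 0.23, interval 0.16 to 1.29), or 1.65-fold, with an adjusted p of 0.272 in limma, and it was short of both parts of the call rule. In the block fit its adjusted p was 0.214. The MMP14 spot lay 16 rows from the low-signal region. The spots around it deviated by -0.05 on si-Control replicate 2, a lower value than the 0.25 to 0.69 around 15 other spots of the 9 genes. A deviation is the median difference of the surrounding spots from their mean on the other arrays. For this check the region was kept in the normalization, so these deviations are not on the scale of the values given above. Without si-Control replicate 2 the MMP14 difference was 0.61 (SE 0.25), and the unadjusted p of limma was 0.063.

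MMP7 and MMP9 had groups that overlapped. MMP7, matrilysin, a small enzyme of epithelial cells, read 7.58, 7.72 and 6.69 in si-Control and 7.51, 7.43 and 6.83 in si-C1GALT1-3. The difference was -0.08 (SE 0.34, interval -0.92 to 0.77), and slide 3 was lowest in both groups, as for MMP1. MMP9, gelatinase B, which degrades type IV collagen of basement membranes, read 10.97, 9.24 and 10.57 in si-Control and 9.89, 9.60 and 9.98 in si-C1GALT1-3. Its difference was -0.44 (SE 0.46, interval -1.58 to 0.71), negative on slides 1 and 3 and positive on slide 2. Without si-Control replicate 2, the lowest of the 6 values, the difference was -0.95 (SE 0.22), which met the p of the rule and was short of 2-fold. Without si-Control replicate 1, the highest value, it was -0.08, and without si-Control replicate 3 it was -0.28. The MMP9 spot lay 7 columns from the low-signal region. With the region kept as for MMP14, the spots around it deviated by 0.08 on si-Control replicate 2. That was also lower than the 0.25 to 0.69 around 15 other spots of the genes described here. Around 1 of the MMP1 spots the deviation was 0.07. That spot read 1227 on si-Control replicate 2, the lowest of the MMP1 spots used on that array.

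None of the 3 inhibitors was called. TIMP1, a secreted inhibitor of most soluble metalloproteinases, read 14.34, 14.66 and 14.12 in si-Control and 14.13, 14.12 and 13.91 in si-C1GALT1-3. The treated array was lower on all 3 slides, by differences of -0.20, -0.54 and -0.21, but the groups overlapped and the difference of -0.32 (SE 0.18, interval -0.77 to 0.13) did not pass (adjusted p = 0.511). With each array left out in turn it ran from -0.45 to -0.18. TIMP2, which inhibits MMP14 and also takes part in the activation of the MMP2 precursor by it, read 12.38, 13.03 and 12 in si-Control and 12.69, 13.03 and 12.65 in si-C1GALT1-3. Its difference was 0.33 (SE 0.29, interval -0.40 to 1.05), and on slide 2 the arrays differed by 0.01. It was 0.61 without si-Control replicate 2 and 0.09 without si-Control replicate 3, with no call in either.

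TIMP3, a matrix-bound inhibitor that also blocks ADAM17, was well above background on 2 of 3 arrays in each group. It read 5.46, 6.91 and 7.34 in si-Control and 6.05, 4.26 and 6.24 in si-C1GALT1-3. The within-slide differences of 0.59, -2.66 and -1.10 differed in sign. The fitted difference of -1.05 had an SE of 0.72 and an interval of -2.84 to 0.73, which held both lower and higher values, and a change in either direction was not detectable at this signal. It was -1.63 without si-Control replicate 1 and -0.42 without si-C1GALT1-3 replicate 2.

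PLAU, which encodes urokinase, had 2 probes for different RefSeq transcripts. The brighter one read 7.73, 7.42 and 7.48 in si-Control and 7.26, 7.44 and 8.06 in si-C1GALT1-3, a difference of 0.05 (SE 0.25, interval -0.56 to 0.66). The slides differed in sign, with -0.47, 0.02 and 0.58. The other probe was well above background on 1 of 3 arrays in each group. It read 4.95, 6.55 and 5.56 in si-Control and 3.70, 5.66 and 5.55 in si-C1GALT1-3, with a difference of -0.71 (SE 0.67, interval -2.37 to 0.94), which became -1.08 without si-Control replicate 1 and -0.08 without si-C1GALT1-3 replicate 1. The intervals of the 2 probes overlapped, and the probes were not tested against each other.

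ADAM17, which sheds cell-surface ligands and receptors, read 10.28, 10.87 and 10.72 in si-Control and 10.40, 10.51 and 10.95 in si-C1GALT1-3. The groups overlapped, the slides differed by 0.12, -0.36 and 0.23, and the interval of the difference ran from -0.58 to 0.58.

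**Figure D3:**
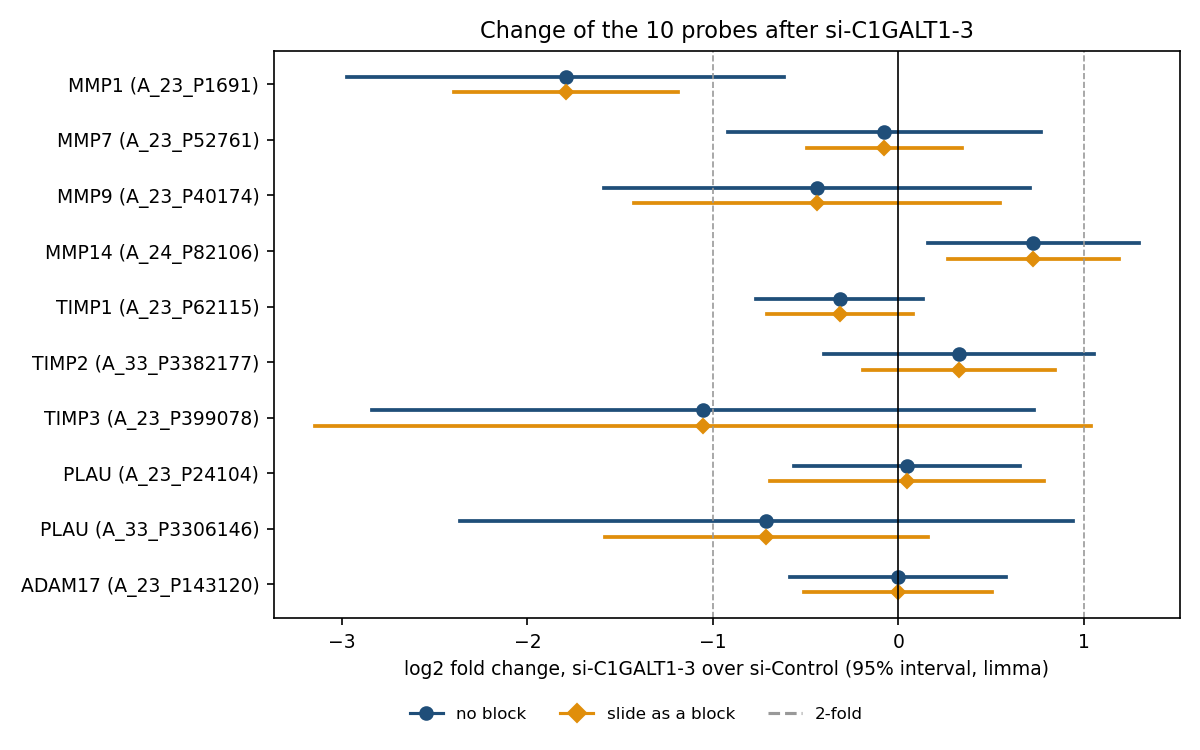
Difference between si-C1GALT1-3 and si-Control (horizontal axis, log2 units) for each of the 10 probes, with the 95% confidence interval, without a block (circles) and with the slide as a block (diamonds); dashed lines mark 2-fold. MMP1 at -1.79 and MMP14 at 0.73 are the probes whose interval does not include 0, and the interval of TIMP3 is the widest.

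**Figure D4:**
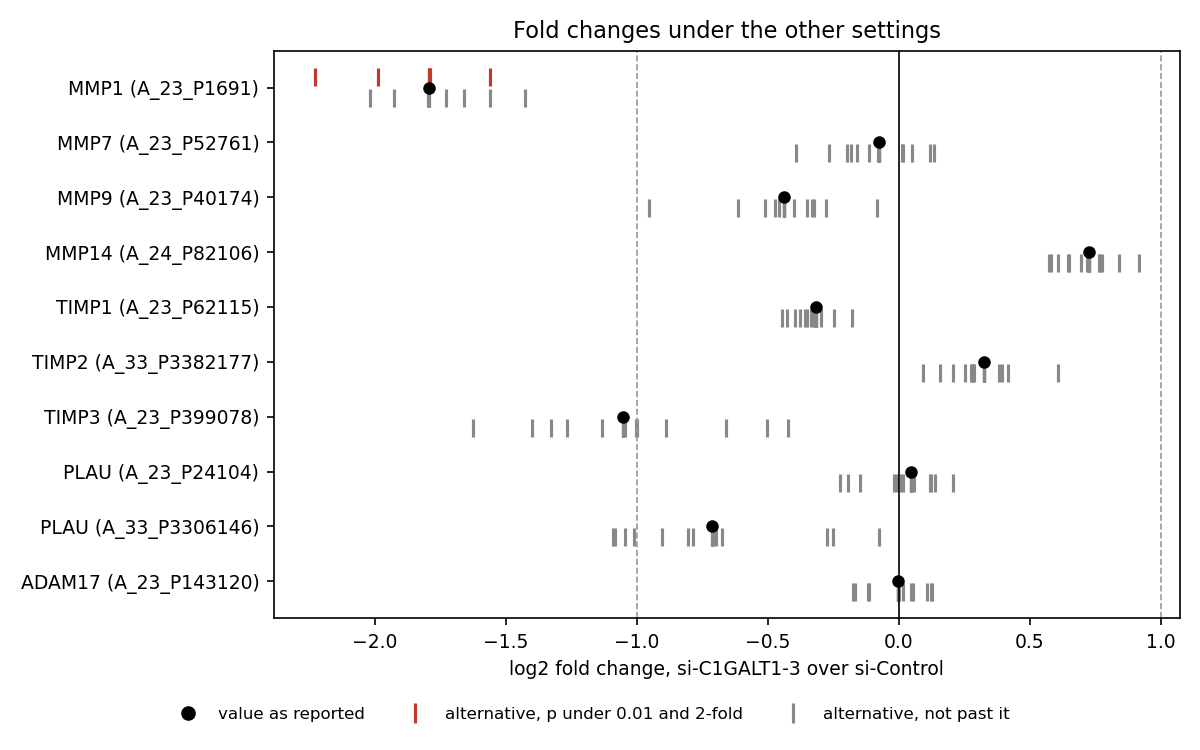
Difference in log2 units (horizontal axis) of each probe under the alternative settings, each tick being 1 setting, in red where the call rule was passed, and the dot the value given in the text. MMP1 ranged from -2.23 to -1.43 and MMP14 stayed above 0 in each setting tried. Several settings changed only the test or the probe set and so repeat the value of the dot. The median of a gene's probes is not drawn.

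Other genes of the same proteolytic system were examined in 8 lists of 93 genes, of which 74 stood well above background throughout 1 group or both. The highest and lowest genes of each list are named among these 74. Of the 93, 5 were called, 3 higher and 2 lower, where 2.08% of all named genes were called higher and 1.33% lower. The median difference of the 93 genes was 0.10. Among 19 other matrix metalloproteinases 0 were called and the median was 0.12. The highest of them was MMP24, a membrane-anchored enzyme best known from the nervous system, which read 8.52, 8.02 and 9.61 in si-Control and 10.21, 9.93 and 10.81 in si-C1GALT1-3. The groups did not overlap, and the difference of 1.60 (SE 0.46, adjusted p = 0.242) was not called, whereas in the block fit it was. The lowest of those above background was MMP21 at -0.74 (SE 0.39). Lower values stood at MMP10 (-1.46), MMP12 (-1.15, 2 control arrays) and MMP8 (-0.86). Each was well above background on 1 array of si-Control and 0 of si-C1GALT1-3, so that no fall was established. Among 4 other inhibitors and activators 0 were called, with RECK, a membrane-anchored inhibitor of metalloproteinases, at 0.50 on 2 control arrays and FURIN, a convertase that activates MMP14 and ADAM17, at -0.20.

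The plasminogen list of 11 genes held the largest change, that of SERPINB2, an inhibitor of urokinase known as PAI-2. SERPINB2 fell: it read 11.44 and 11.25 in si-Control replicates 1 and 3, its spot on replicate 2 being in the low-signal region, and 8.13, 7.93 and 9.53 in si-C1GALT1-3. All treated values lay below both control values, with a difference of -2.82 (SE 0.54), or 7.04-fold lower, (adjusted p = 0.159). It was called in 10 of 18 settings, and in the block fit the difference was -2.52 and the call was lost. PLAT, tissue plasminogen activator, read 8.70, 9.11 and 7.33 in si-Control and 7.06, 7.56 and 6.42 in si-C1GALT1-3. The groups overlapped, while each treated array lay below the control array of its slide. The difference of -1.37 (SE 0.54, adjusted p = 0.353) was not called. PLAT was called in 3 of 18 settings, the block fit among them. LRP1, an endocytic receptor that clears protease and inhibitor complexes, had a difference of 0.67 (SE 0.17, adjusted p = 0.197), short of 2-fold, and the urokinase receptor PLAUR one of -0.19 (SE 0.55).

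Of 11 cathepsins, cystatins and heparanase, 2 were called higher and 0 lower. Called or not, 8 had a difference above 0 and 3 below it, with a median of 0.22. Of all named genes, 11761 were higher and 10677 lower, with a median of 0.02. CTSD, a lysosomal aspartic protease, read 14.18, 14.52 and 14.62 in si-Control and 15.59, 15.55 and 15.94 in si-C1GALT1-3, a difference of 1.25 (SE 0.19, adjusted p = 0.0993). CTSD was called in 18 of 18 settings, the one given here included. CTSH, a lysosomal aminopeptidase, rose by 1.03 (SE 0.20, adjusted p = 0.137) and was called in 12 of 18. CTSL, a secreted and lysosomal cysteine protease, was the lowest of the list at -0.59 (SE 0.28) and was called in 0 of 18.

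The remaining protease and substrate lists had 0 calls, among 15 ADAM and ADAMTS proteases and ADAM17 partners, 6 membrane serine proteases and their inhibitors, and 15 matrix substrates. ADAM15 was the lowest of the first list at -0.49 (SE 0.14, adjusted p = 0.239) and FRMD8, which stabilises the ADAM17 complex, the highest at 1.27 (SE 0.82). FRMD8 lay beside the low-signal region, and without si-Control replicate 2 its difference was 0.32. Among the membrane serine proteases, HPN was highest at 1.60 (SE 0.79, 2 control arrays) and TMPRSS2 lowest at -0.38. Among the substrates, TNC, tenascin-C, was highest of those above background at 0.64, with SPARC at 0.66 but well above background on 1 of 6 arrays. TNC stood at -0.03 without si-Control replicate 2, next to whose region its spot also lay, and COL4A1, a chain of type IV collagen, was lowest at -0.50 on 2 control arrays.

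Of 12 AP-1 and ETS factors, 1 was called higher and 1 lower. Called or not, 8 were higher and 4 lower, with a median of 0.30, against 11761 higher and 10677 lower of all named genes. ETS1, the founding ETS factor, read 8.51, 8.57 and 8.74 in si-Control and 7.44, 7.51 and 7.80 in si-C1GALT1-3. It fell by 1.02 (SE 0.16, adjusted p = 0.102), with differences of -1.07, -1.06 and -0.94 on the 3 slides. It was called in 12 of 18 settings, where it ran from -1.21 to -0.82. ELF3, an epithelial ETS factor, rose by 1.04 (SE 0.18, adjusted p = 0.141) on 2 control arrays. It was called in 9 of 18 settings and lost its call in the block fit. ETV4, of the PEA3 subfamily, had a difference of -1.28 (SE 0.37, adjusted p = 0.241) and was called in the block fit.

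**Figure D5:**
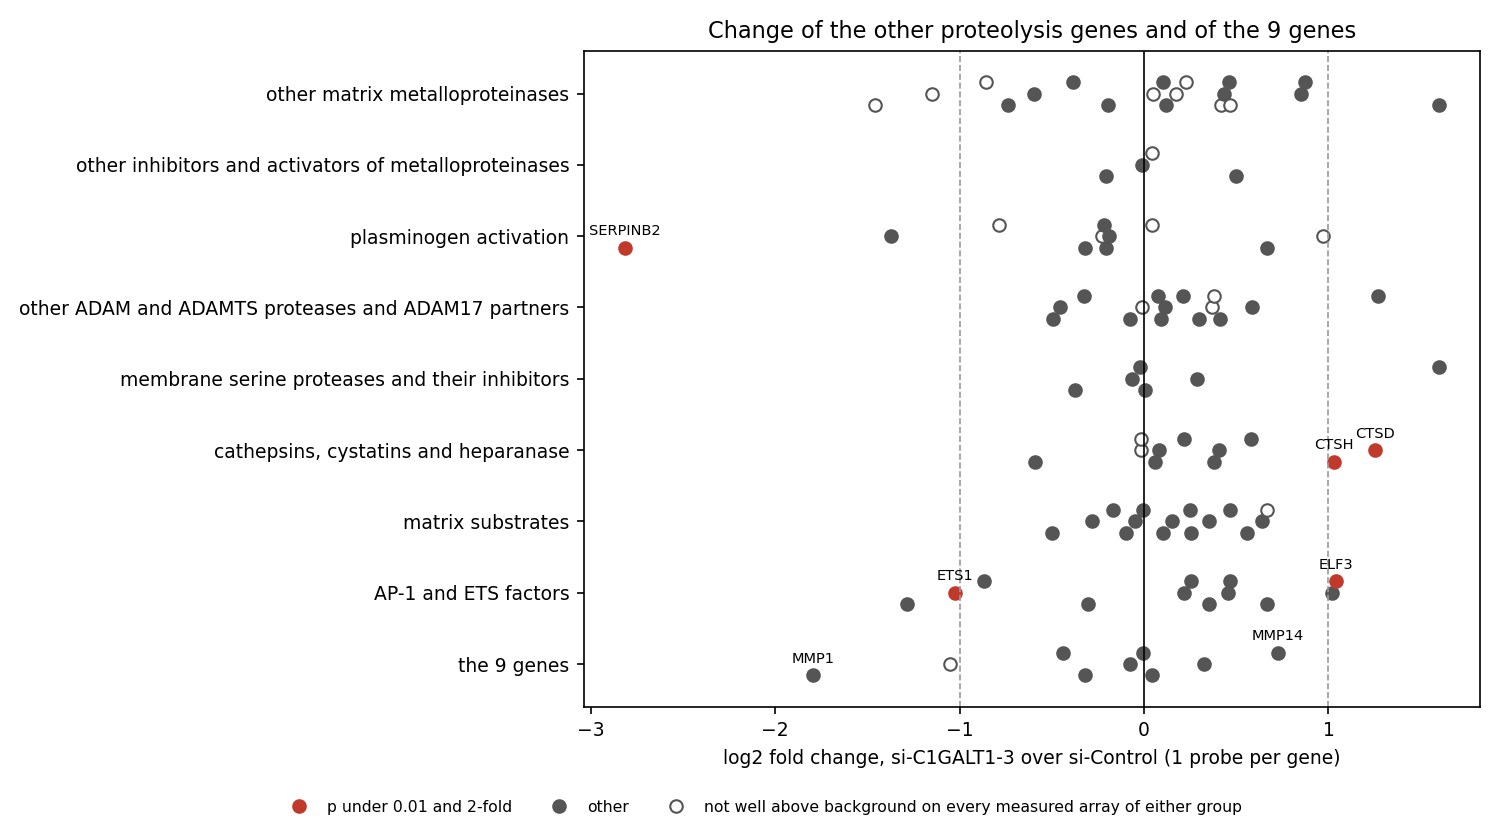
Difference between si-C1GALT1-3 and si-Control (horizontal axis, log2 units) for the genes of the 8 lists and the 9 genes, 1 row of points per list. Red points are called genes and open points are dim probes: SERPINB2 at -2.82 and ETS1 at -1.02 on the lower side, and CTSD, CTSH and ELF3 between 1.03 and 1.25 on the higher side.

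For the members well above background on all arrays, the probes with the most similar pattern over the 6 arrays were sought among 18650 named probes, as a description over 6 points that share 2 groups and 3 slides. MMP1 was most like ATP2A2 (Pearson r = 0.997) and PIM1 (0.996). MMP14 was most like SNORA11D (0.987) and CYB561D1 (0.986), and TIMP1 most like CCDC93 (0.997) and CYB5R2 (0.995). For MMP7 they were SDHAF4 and IL10 (0.994 each), for MMP9 UNC5A (0.997) and CPXM1 (0.996), for TIMP2 MXRA8 (0.994) and HSPG2 (0.993), for PLAU DAB1 (0.999) and PRKAR1B (0.979), and for ADAM17 SLC39A14 (0.993) and MPRIP (0.990). With so many probes and 6 arrays, high values of r arise easily, and no gene was tested on this basis.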

How the data were processed

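Total RNA of 6 samples was measured on one-colour Agilent SurePrint G3 arrays. The deposited values are intensity per spot from Agilent Feature Extraction 10.5.1.1, corrected for background by the authors' software and not normalized between arrays. From these, log2 of the processed signal was taken, spots marked as non-uniform or population outliers were set to missing, rows 113 to 288 and columns 59 to 115 of si-Control replicate 2 were masked, and arrays were quantile normalized. Spots of a probe were averaged and groups compared with limma 3.58.1 (lmFit and eBayes, two-sided) in R 4.3.3, with Benjamini-Hochberg adjustment over all probes. There was no filter on dim probes. A gene was represented by its probe with the highest mean signal. Accessions gave a RefSeq symbol to 31104 probes, and 27097 stayed unnamed. One gene of the lists, ADAM28, was not matched.

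The genes and lists were chosen with earlier results of these data known. The text names the 9 genes, C1GALT1, the called genes and the largest rise and fall of each list among genes above background, and the 2 probes most similar to each member. PLAT, PLAUR, MMP8, MMP10, MMP12, SPARC and the markers named singly were named after their values were seen, and the comparison of spots with their surroundings was added then too. Deviations from the group means of arrays with the same replicate number correlated at 0.198, 0.215 and 0.329 over 48794 probes. The scanner files place such arrays on 1 slide, so the numbers served as pairs in the replicate block and in the within-slide differences. The differences, SEs, p-values and calls given without mention of the block came from a fit that ignored the pairs. The alternatives were the 75th percentile or no normalization, normexp with an offset of 50 on the median spot signal, the series table of background-subtracted intensity deposited by the authors, the region or outlier spots kept, dim probes left out, the replicate block, a trend and robust prior, the methods' t-test, the median of a gene's probes, and each array left out. Leaving out slide 3 was added after seeing the data. The fits and the call rule were tried on simulated data with known changes, which left out slide effects, the low-signal region and the normalization.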

Additional observations from a re-analysis of the deposited data

How the results depend on the processing

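MMP1 kept its direction under every alternative tried, and MMP14 too, but many alternatives could not have changed it. The block, the trend and robust prior, the t-test, dim probes left out and the median of probes returned the same differences, -1.79 and 0.73. As the groups of both genes did not overlap, leaving out arrays could change the direction only through the normalization. The count of called genes among the 9 was 1, in place of 0, with the 75th percentile, normexp, dim probes left out, a trend and robust prior, the replicate block and slide 3 left out. In each of these the gene was MMP1. Leaving out 1 array gave 0 to 1, the call being without si-Control replicate 3. Pairing by the replicate block changed the calls of MMP1, SERPINB2, ELF3, MMP24, ETV4, PLAT and MMP10 (difference -1.46), and of no other gene of the lists. The count over all probes was 1538, of which 62.5% were higher; it was 915 with normexp and 896 with the methods' t-test, and 1126 to 1781 with 1 array left out. The higher share was 72.6% without normalization and 40.2% with the region kept. The smallest adjusted p of limma was 0.0499, and 49 probes had an adjusted p under 0.05. That count became 0 with the block, without normalization, with the region or outlier spots kept, and with the trend and robust prior. It was also 0 with any 1 array or slide 3 left out. It was 31 with the 75th percentile, 74 with the series table, 429 with normexp and 545 with dim probes left out. Of the 93 list genes, 5 were called, and 3 without normalization, with the series table or with the region kept. The count was 4 with the methods' t-test, 6 without slide 3, 7 with the block and 7 of 74 with dim probes left out. Leaving out 1 array gave 1 to 6, with 1 without si-C1GALT1-3 replicate 1 and 3 without si-C1GALT1-3 replicate 2. Differences near 0 changed sign. The 75th percentile shifted the median of all probes to -0.11. PLAU became -0.0065 with it, -0.15 with the region kept, -0.22 without slide 3, and -0.19 to 0.21 with 1 array left out. With the median of its probes, the dimmer one included, PLAU was at -0.33. MMP7 became 0.015 without normalization, 0.011 with normexp and -0.39 to 0.13 with 1 array left out. ADAM17 became 0.13 without normalization, 0.00047 with normexp, 0.015 with the series table, and -0.18 to 0.12 with 1 array left out. The cause was not tested. Low signal limits TIMP3 and the dimmer PLAU probe.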
